A study of Homo sapiens with 16 samples.

Results

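The genes described here are 38 cell cycle genes, 15 that act around the start of DNA replication and 23 that act in mitosis. They were taken by name from a fixed list, which was drawn up with earlier results of these data known. All 38 were listed in every table, among 20121 genes in the first bulk set, 27650 in the second, 21093 in the TNFα set and 36601 in the single-cell matrices. A dividing cell first licenses and copies its DNA (S phase) and then condenses, aligns and separates its chromosomes (mitosis). The transcripts of each step are made in waves, so the S phase genes peak before the mitotic genes, and both sets are low in cells that have left the cycle. In the kidney, progenitor and stromal cells divide during development, and mature podocytes and neurons are textbook examples of cells that no longer do.

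All libraries came from kidney organoids, 3-dimensional cultures with nephron-like and stromal cells, grown from 1 human embryonic stem cell line, UM77-2. Set 1 held 1 bulk RNA library of untreated spheroids on each of days 21, 25 and 29 of culture (D21, D25, D29), and set 2 held 2 libraries a day, Org1 and Org2, from spheroids refed daily from day 17. In the TNFα set, spheroids received vehicle (VC) or 5 ng/ml TNFα, an inflammatory cytokine, for 24 h or 48 h, with 1 library for each of the 4 conditions. The labels put the start of both treatments on day 23, a renewal for the 48 h wells on day 24 and the collection of all wells on day 25, and no source used here says how the 24 h wells spent the remaining time. Whole wells gave the 2 single-cell libraries of day 24, VC and 5 ng/ml TNFα for 24 h, and a further, untreated single-cell library was not analysed here. No source used here says whether Org1 and Org2 came from separate cultures, so the p-values measure only the spread between these libraries. A single cell line and 1 library for most conditions limit what these groups stand for.

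Bulk values are log2(CPM + 1), where CPM is the read count scaled to the library total, and they compare 1 gene between libraries and not genes with each other, since they are not scaled to gene length. Totals ran from 25508651 to 29408687 reads in set 1, from 19073609 to 30282025 in set 2 and from 49948198 to 59246286 in the TNFα set. The mitotic genes had medians between 4.52 and 5.06 in the 6 libraries of set 2. In set 2 the typical SD of a member between the 2 libraries of a day was 0.11 (median over members, log2 scale), and the largest was 0.38. Podocyte and tubule markers were present in every library. Leukocyte markers were at or near 0, with 1 such gene listed in set 2, at no more than 0.18 CPM, and none listed in the other tables. In bulk RNA, fewer cells of a type and less RNA per cell cannot be told apart.

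The first question was how the division genes moved over culture time. In set 2 the mitotic genes were lowest on D25. All 23 had both D25 libraries below the 4 libraries of D21 and D29, which held for 5.59% of all 27650 genes. Their median change from D21 to D25 was -0.49 on the log2 scale, against -0.05 for the 15 S phase genes and -0.01 for all genes with a mean of at least 1. Of the 23 mitotic genes, 11 passed the test as lower (limma, adjusted p under 0.05, 2 libraries a day) and none as higher, with 16 by edgeR and 15 by DESeq2, where limma called 5.37% of all genes, 1.99% lower and 3.39% higher. Here and below, shares of all genes called are those of limma alone and were not counted for edgeR and DESeq2. None of the 15 S phase genes was called by limma, edgeR or DESeq2, and 2 of them had an unadjusted p under 0.05 by limma. The 11 calls rested on few libraries: without the D21 Org2 or the D25 Org2 library no member was called, without D21 Org1 or D25 Org1 there were 2 calls, and without either D29 library there were 18.

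**Figure D1:**
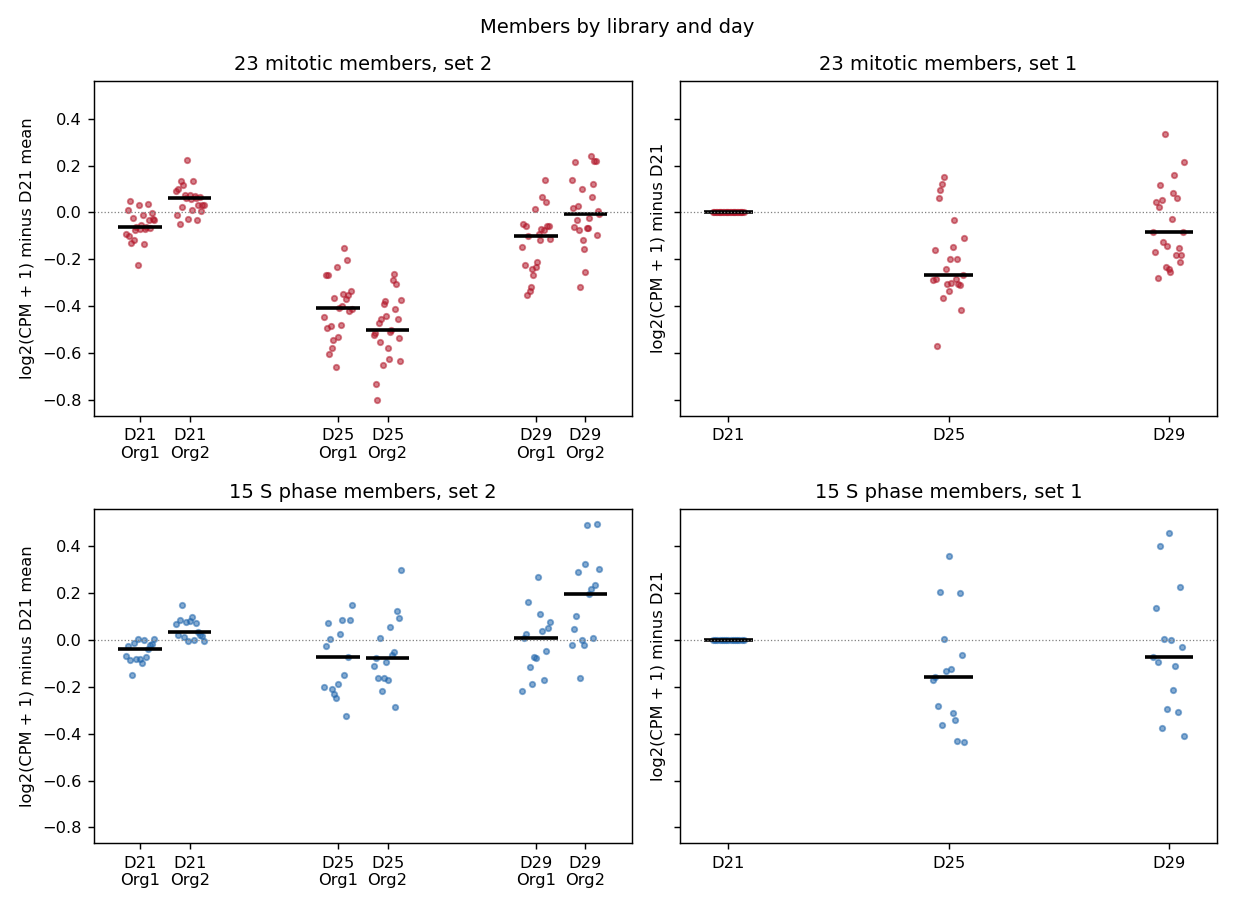
Each point is 1 gene in 1 bulk library of sets 1 and 2, as its log2(CPM + 1) minus the gene's D21 mean (set 2) or D21 value (set 1), and each bar is the median over the 23 mitotic or 15 S phase genes. In set 2 all points of the mitotic genes on D25 lie below 0, and the S phase points spread around 0.

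Among the proteins that hold chromosomes to the spindle and check their attachment, CENPF, a kinetochore protein (ENSG00000117724, chromosome 1, 214603185 to 214664574, GRCh38), had the smallest adjusted p. Its values were 7.21 and 7.36 on D21, 6.75 and 6.70 on D25, then 7.05 and 7.03 on D29. The days did not overlap, with D25 lowest. The change from D21 to D25 was -0.56 (SE 0.07, limma, adjusted p = 0.00591). BUB1B, a checkpoint kinase-like protein, read 4.88 and 4.90, then 4.41 and 4.38, then 4.80 and 4.83, a change of -0.50 (limma, adjusted p = 0.0123). Its partner BUB1, a checkpoint kinase, changed by -0.52 (limma, adjusted p = 0.0338). CENPE, a kinetochore motor protein, had the smallest change of the 4, -0.34, and was not called.

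The spindle and chromosome proteins, 9 of the members, shifted by -0.49 to -0.21 from D21 to D25. MKI67 (ENSG00000148773, chromosome 10, 128096659 to 128126423), which coats mitotic chromosomes and gives the Ki-67 proliferation antigen, read 7.70 and 7.76 on D21, 7.32 and 7.36 on D25, then 7.62 and 7.72 on D29. Its D25 libraries lay apart from all others, and the change from D21 was -0.39 (SE 0.07, limma, adjusted p = 0.0194). TOP2A (ENSG00000131747, chromosome 17, 40388525 to 40417896), the topoisomerase that untangles replicated DNA, read 7.30 and 7.36, then 6.99 and 6.69, then 7.27 and 7.34, a change of -0.49 (limma, adjusted p = 0.0329). ASPM, a spindle pole protein (chromosome 1, 197084121 to 197146694), changed by -0.48 (SE 0.07, limma, adjusted p = 0.00980), and TPX2, which activates Aurora A on the spindle, by -0.45 (limma, adjusted p = 0.0437). The other 5 of this group were not called: DLGAP5, a spindle assembly protein, at -0.41, and the kinesin motors KIF23 at -0.39, KIF2C at -0.32 and KIF11 at -0.21, with NUSAP1, which binds spindle microtubules, at -0.25. KIF11 and NUSAP1 had the smallest shifts of the 23, and their D25 libraries were also the lowest.

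The cyclins, the mitotic kinase and the parts of the machinery that destroys cyclins shifted by -0.61 to -0.39. CCNB2 (chromosome 15, 59105126 to 59125045), a B-type cyclin that drives entry into mitosis, read 4.39 and 4.59 on D21, 3.997 and 3.76 on D25, then 4.27 and 4.43 on D29. The change to D25 was -0.61 (SE 0.12, limma, adjusted p = 0.0315). UBE2C, the ubiquitin-conjugating enzyme of the anaphase-promoting complex, read 4.55 and 4.60, then 4.09 and 4.02, then 4.48 and 4.60, a change of -0.52 (limma, adjusted p = 0.0196). CDK1, the kinase of mitosis, had more spread between its D25 libraries. It read 4.23 and 4.13, then 3.91 and 3.38, then 4.12 and 4.398, and its change of -0.54 (SE 0.18) was not called (limma, adjusted p = 0.151). CDC20, the activator of the anaphase-promoting complex, at -0.54 (adjusted p = 0.0604), CCNA2, an S and G2 cyclin, at -0.49 (adjusted p = 0.0590) and CCNB1 at -0.39 (adjusted p = 0.0564) missed the limma threshold narrowly.

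Of the mitotic kinases, AURKA (chromosome 20, 56369389 to 56392337), the kinase of spindle poles, read 4.24 and 4.39 on D21, 3.77 and 3.66 on D25, then 3.99 in both D29 libraries. It fell by 0.60 to D25 (SE 0.10, limma, adjusted p = 0.0186), and its 3 days did not overlap. PLK1, a kinase of mitotic entry and exit, read 5.09 and 5.33, then 4.63 and 4.75, then 4.88 and 5.13, a change of -0.52 (limma, adjusted p = 0.0489). AURKB and BIRC5, a kinase and a subunit of the chromosomal passenger complex, were at -0.38 and -0.52 and were not called (limma, adjusted p = 0.136 and 0.117).

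**Figure D2:**
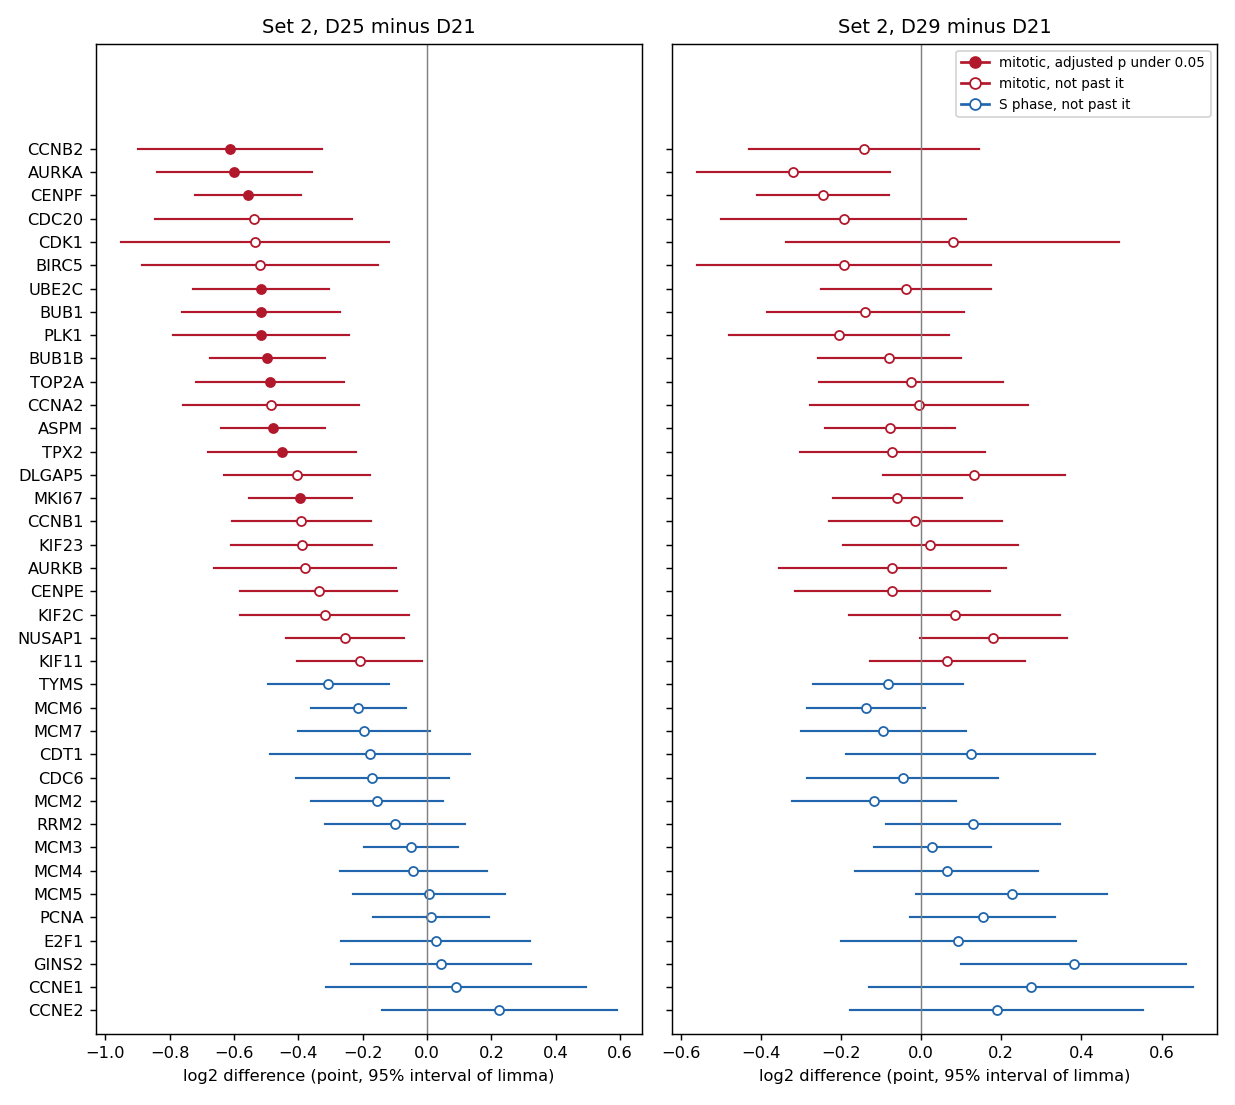
Each point is the change of 1 gene in set 2 on the log2 scale from D21 to D25 and from D21 to D29, with its 95% limma interval, 2 libraries a day, filled where the adjusted p was under 0.05. The 11 filled points are all mitotic genes below 0 on D25, and no point is filled on D29.

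The S phase genes had smaller shifts on D25. The licensing genes load the MCM helicase on DNA, and of the 6 MCM subunits MCM6 read 6.16 and 6.18 on D21, 5.96 and 5.95 on D25, then 6.06 and 6.01 on D29, a change of -0.21 that was not called (limma, adjusted p = 0.109). MCM7 (chromosome 7, 100092233 to 100101940) was at -0.20, MCM2 at -0.16, MCM3 at -0.05, MCM4 at -0.04 and MCM5 at 0.01. The loading factors CDC6 and CDT1 were at -0.17 and -0.18, and GINS2, a subunit of the moving helicase, at 0.04. TYMS, the enzyme that makes thymidylate, came closest to a call, with 5.79 and 5.86 on D21, 5.50 and 5.53 on D25, then 5.65 and 5.83 on D29 (change -0.31, limma, adjusted p = 0.0779). RRM2, a subunit of ribonucleotide reductase, was at -0.10 and PCNA, the sliding clamp of DNA polymerase, at 0.01. The genes that commit a cell to S phase were at or above 0, with E2F1, the transcription factor, at 0.03, CCNE1 at 0.09 and CCNE2 at 0.23, both E-type cyclins. Both D25 libraries were below the 4 others for 5 of the 15 (MCM3, MCM6, CDC6, CDT1 and TYMS), and above them for 0 of all 38 members, against 6.12% of all genes. The 95% intervals of the 15 changes lay between -0.49 and 0.59, a range that reaches to the size of the mitotic shifts on the lower side.

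From D25 to D29 all 23 mitotic genes had a positive change. Their median change was 0.38 and that of the S phase genes 0.12, against -0.01 for all genes with a mean of at least 1. limma called 5 of the 38 higher and none lower, edgeR called 12 higher and DESeq2 14, all of them mitotic, where limma called 2.08% of all genes, 1.25% higher and 0.825% lower. They were DLGAP5 at 0.54 (adjusted p = 0.0424), UBE2C at 0.48 (adjusted p = 0.0460), NUSAP1 at 0.43 (adjusted p = 0.0424), BUB1B at 0.42 (adjusted p = 0.0440) and ASPM at 0.40 (adjusted p = 0.0375), all by limma. DLGAP5 read 4.42 and 4.32 on D25 and 4.82 and 5.00 on D29. NUSAP1 (chromosome 15, 41320794 to 41381050) read 4.96 and 4.86 on D25 and 5.30 and 5.39 on D29, above its D21 values of 5.13 and 5.20. All 5 calls share their D25 libraries with the comparison of D25 with D21. Leaving out any 1 library changed the count: it was 12 without D29 Org1 and 0 without any of the other 5.

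Over the whole span from D21 to D29 no member was called by limma, where 18.4% of all genes were, 10.0% higher and 8.33% lower. At an unadjusted p under 0.05 there were 3 (CENPF, AURKA and GINS2), and edgeR called 1 member, an S phase gene, and DESeq2 none. CENPF was nearest, at -0.25 (limma, adjusted p = 0.05001), then GINS2 at 0.38 (adjusted p = 0.0670) and AURKA at -0.32 (adjusted p = 0.0725). GINS2 (chromosome 16, 85676198 to 85690073) read 3.71 and 3.90 on D21, 3.83 and 3.86 on D25, then 4.07 and 4.30 on D29, with both D29 libraries above the other 4. The median change was -0.07 for the mitotic genes and 0.09 for the S phase genes, against -0.03 for all genes with a mean of at least 1. Both D29 libraries were above both D21 libraries for 5 S phase genes (MCM5, GINS2, PCNA, CCNE1 and CCNE2) and 2 mitotic genes (KIF11 and NUSAP1), a split that 27.1% of all genes had. Both were below both D21 libraries for the mitotic genes AURKA, CENPF, BUB1, BUB1B and ASPM and the S phase genes MCM6 and CDC6. The share of all genes with this lower split was not counted. The 95% intervals bounded the D21 to D29 change between -0.56 and 0.49 for every mitotic gene and between -0.32 and 0.68 for every S phase gene.

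Set 1 had 1 library a day and so no test. There, 17 of the 23 mitotic genes and 9 of the 15 S phase genes were lowest on D25, a position that 25.2% of all 20121 genes had. The median mitotic change was -0.27 from D21 to D25 and 0.18 from D25 to D29. CENPF read 7.62 on D21, 7.29 on D25 and 7.38 on D29, and ASPM read 6.69, 6.28 and 6.51. CDK1, with 5.08, 4.52 and 4.80, had the largest negative difference to D25 of any member. CDC20, UBE2C, PLK1 and AURKB were instead above their D21 value on D25, by 0.06 to 0.15, whereas UBE2C and PLK1 were called lower in set 2. The S phase genes had median differences of -0.16 to D25 and 0.10 from there to D29, and CCNE2, MCM6 and TYMS were lower on D29 than on D21 by 0.41, 0.38 and 0.31. Altogether 23 of the 38 were lower on D29 than on D21, a direction shared by 50.5% of all genes.

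Beyond the 38, wider lists of cell cycle genes were read in the same fits. Over all genes of set 2, limma called 1.99% lower and 3.39% higher from D21 to D25. From D21 to D25 in set 2, 3 of 35 other G2 and mitosis genes were called lower and none higher by limma, with a median of -0.31, and edgeR called 6 lower and DESeq2 3. HMMR, a spindle protein, changed by -0.74 (limma, adjusted p = 0.0163), SMC4, a condensin subunit, by -0.43 (adjusted p = 0.0382) and KIF20A, a kinesin of cell division, by -0.42 (adjusted p = 0.0228), and KIF20A was called higher again from D25 to D29 at 0.41 (limma, adjusted p = 0.0449). Of 29 other S phase genes none was called by limma, edgeR or DESeq2 from D21 to D25, with 3 at an unadjusted p under 0.05 and a median of -0.05. Of 16 drivers of the G1 phase, CCND1, the D-type cyclin, read 7.77 and 7.95 on D21 and 7.22 and 7.29 on D25 and was called lower (-0.61, limma, adjusted p = 0.0207), as was E2F3, a transcription factor of the G1 to S transition (-0.58, adjusted p = 0.0281). CCND3, another D-type cyclin, was called higher (0.64, adjusted p = 0.0359) and reached 4.69 and 5.06 on D29 from 3.77 and 3.87 on D21. Of 17 brakes of the cycle none was called on D25 by limma or DESeq2 and 1 by edgeR, with 2 at an unadjusted p under 0.05 by limma.

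From D21 to D29 limma called 1 of 17 brakes higher and 2 lower, and 1 of 16 drivers higher and 2 lower. Of 35 other G2 and mitosis genes 2 were called higher and 1 lower, and of 29 other S phase genes 1 was called lower. Over all genes limma called 18.4%, with 10.0% higher and 8.33% lower, against 5.37% from D21 to D25. The brake CDKN1A (p21) was higher than on D21 by 0.54 (limma, adjusted p = 0.0245), and GADD45A, a stress gene that halts the cycle, at -0.95 (adjusted p = 0.0454) and E2F5, a repressor of the E2F family, at -0.62 (adjusted p = 0.00271) were lower. Of the drivers, CCND3 was called higher at 1.06 (adjusted p = 0.00143), and E2F3 at -0.58 (adjusted p = 0.0104) and CDC25A, a phosphatase that activates cyclin kinases, at -0.37 (adjusted p = 0.0307) were called lower, all by limma. Of the other G2 and mitosis genes, JPT1 (0.72) and TMPO (0.24) were called higher and TUBB4B, a tubulin, lower (-0.52), and of the other S phase genes SLBP, the histone mRNA binding protein, was called lower (-0.28). The call of SLBP was made by limma alone and not by edgeR or DESeq2, and those of GADD45A and CDC25A were not made by DESeq2.

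Markers of other cell types differed over the same days. The summed level of 8 stromal markers was 4817 and 4219 CPM on D21, 10960 and 11327 on D25, then 14151 and 17672 on D29, and 7 of the 8 were called higher on D25. This sum was thus farther from D21 on D29 than on D25. The 7 muscle markers were lowest on D25, at 87.7 and 122 CPM on D21, 63.1 and 62.5 on D25, then 199.7 and 145 on D29, with 4 called higher from D25 to D29. Over all genes limma called 3.39% higher from D21 to D25 and 1.25% higher from D25 to D29. None of the stromal or muscle markers was at 0 in any library. The 8 neural progenitor markers summed to 49.2, 47.3, 48.9, 70.6, 89.2 and 140.1 CPM in the same order, and 1 of them was at 0 in the D25 Org1 library. In set 1, with 1 library a day, the muscle sum instead rose from 81.0 CPM on D21 to 166 on D25 and 282 on D29. The part of cell type shares in the course of the division genes was not tested.

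The members with a promoter in the reference table differed in their motifs. In the window from base -250 to base 50 around the start of each gene (RefSeq, GRCh38.p14), 31 of the 38 members had an entry. The 3 kinds of motif were counted on both strands. CHR (TTTGAA or TTCGAA), the cell cycle homology region, is the element through which the DREAM complex and its activators act on G2 and mitosis genes. The E2F motif, searched as TTCCCGC, with its variant TTGGCGC, and as TTCGCGC, with its variant TTGCCGC, is bound by the E2F factors of S phase, and CCAAT is bound by NF-Y. None of these words contains another, and 1 window can hold several. Counts are of genes, and a gene counted where any of its windows held the word. CHR words were found for 14 of 19 mitotic genes (73.7%) and 1 of 12 S phase genes (8.33%), against 19.5% of all 27305 genes in the reference. E2F words were found for 11 of 12 S phase genes (91.7%) and 5 of 19 mitotic ones (26.3%), against 15.3% of all. CCAAT was found for 84.2% of the mitotic and 66.7% of the S phase genes, against 39.7% of all. The mitotic genes without a CHR word were CENPE, KIF2C, CCNA2, CCNB1 and AURKB, MCM6 was the S phase gene that had one, and CCNE1 was the S phase gene without an E2F word. A match is a description of letters and not a shown binding site.

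Promoters are shown for the 2 mitotic and the 2 S phase members with the largest change from D21 to D29 among those with the motif of their class, from base -250 to base 30 around the start, 5′ to 3′ along the gene. Capitals mark CHR, E2F and CCAAT words read on either strand (ATTGG is CCAAT and GCGGGAA is TTCCCGC on the other strand). The PLK1 window holds TTTGAA at 29 bases before the start, with a CCAAT upstream of it. The stretch of CENPF has 4 CCAAT words, and its CHR word lies 41 bases after the start, beyond the printed stretch. The E2F word of GINS2 is at 31 bases and that of PCNA at 59 bases before the start, and the stretch of PCNA also has 3 CCAAT words. The stretches are CENPF at chr1:214602945-214603224 (plus strand), PLK1 at chr16:23678639-23678918 (plus strand), GINS2 at chr16:85688925-85689204 (minus strand) and PCNA at chr20:5126593-5126872 (minus strand), and PCNA has 1 further start in the table.
CENPF: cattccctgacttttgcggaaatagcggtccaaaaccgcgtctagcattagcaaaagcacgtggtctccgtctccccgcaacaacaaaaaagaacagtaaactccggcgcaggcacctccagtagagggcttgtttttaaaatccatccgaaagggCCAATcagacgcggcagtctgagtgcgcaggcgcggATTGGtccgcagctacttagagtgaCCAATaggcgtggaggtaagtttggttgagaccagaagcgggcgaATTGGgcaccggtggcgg
PLK1: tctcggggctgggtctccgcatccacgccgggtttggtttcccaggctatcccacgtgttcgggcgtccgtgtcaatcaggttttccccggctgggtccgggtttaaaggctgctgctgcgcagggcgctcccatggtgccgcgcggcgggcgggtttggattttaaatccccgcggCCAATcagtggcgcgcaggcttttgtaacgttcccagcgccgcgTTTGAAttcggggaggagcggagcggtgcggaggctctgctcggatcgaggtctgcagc
GINS2: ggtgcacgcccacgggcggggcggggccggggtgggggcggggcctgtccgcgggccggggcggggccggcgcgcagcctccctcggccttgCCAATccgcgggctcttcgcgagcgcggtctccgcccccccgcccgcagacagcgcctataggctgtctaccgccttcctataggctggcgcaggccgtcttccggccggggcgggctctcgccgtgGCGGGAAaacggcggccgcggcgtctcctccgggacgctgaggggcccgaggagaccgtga
PCNA: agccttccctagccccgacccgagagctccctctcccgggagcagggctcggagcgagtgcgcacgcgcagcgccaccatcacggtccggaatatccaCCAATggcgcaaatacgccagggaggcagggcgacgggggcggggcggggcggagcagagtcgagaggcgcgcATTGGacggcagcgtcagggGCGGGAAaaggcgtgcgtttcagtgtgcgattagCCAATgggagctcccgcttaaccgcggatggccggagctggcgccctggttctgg

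The next question was what TNFα did to the division genes. With 1 library per condition the single times have no test. At 24 h, 22 of 23 mitotic genes were lower in the TNFα library than in the VC library, a direction shown by 58.3% of all 21093 genes, and 20 of them were lower by over 0.2 on the log2 scale, which 21.5% of all genes were. The median mitotic difference was -0.31, the S phase median -0.01 and that of all genes with a mean of at least 1 -0.04. At 48 h, 19 of 23 mitotic genes were higher with TNFα, as were 47.1% of all genes, by a median of 0.06.

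**Figure D3:**
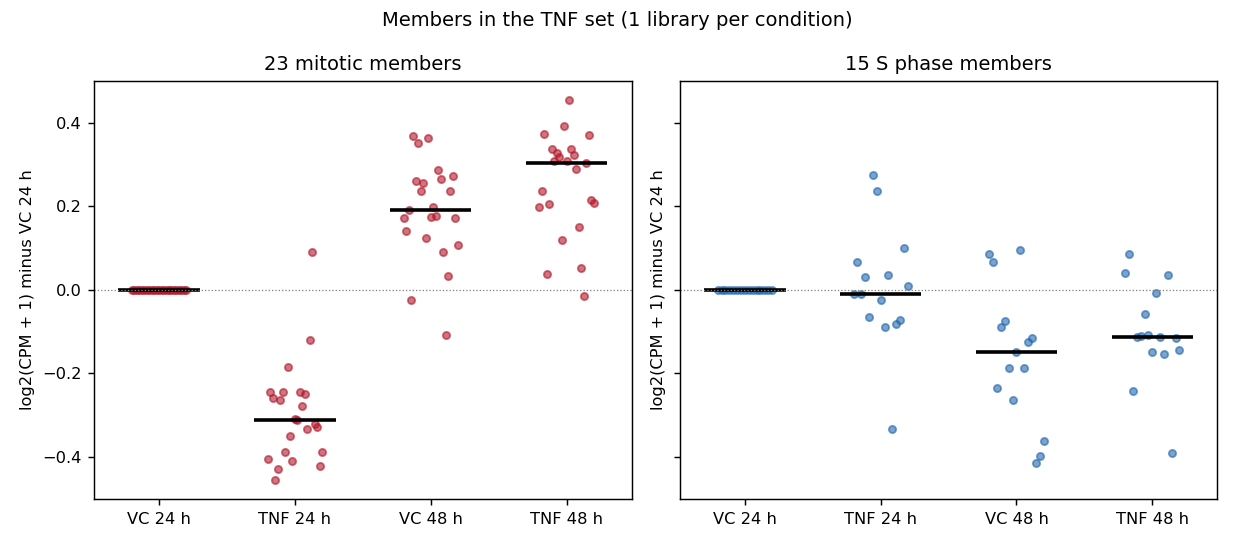
Each point is 1 gene in 1 of the 4 bulk libraries of the TNFα set, as its log2(CPM + 1) minus its value in VC 24 h, and each bar is the median over the 23 mitotic or 15 S phase genes. The TNFα 24 h library has 22 of 23 mitotic points below 0, while both 48 h libraries have most above 0.

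TOP2A read 6.98 in VC and 6.55 with TNFα at 24 h, then 7.15 and 7.19 at 48 h. MKI67 read 6.66 and 6.27 at 24 h, then 6.77 and 6.87. CDK1 had the largest difference at 24 h, 4.77 against 4.31, and read 4.74 and 4.81 at 48 h. In each the TNFα library of 24 h was the lowest of the 4 and the other 3 lay close together. For the checkpoint genes too the TNFα 24 h library was the lowest, but VC 24 h lay below both 48 h libraries. CENPE read 3.81, 3.40, 4.18 and 4.204 and BUB1 4.17, 3.86, 4.37 and 4.62 in VC 24 h, TNFα 24 h, VC 48 h and TNFα 48 h. CENPF read 6.27, 5.96, 6.44 and 6.58 in that order, and BUB1B differed by -0.24 at 24 h and 0.16 at 48 h. AURKA read 3.91 and 3.52 at 24 h and 4.15 and 4.24 at 48 h. PLK1, AURKB and BIRC5 differed by -0.24, -0.19 and -0.35 at 24 h.

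CDC20 (chromosome 1, 43358981 to 43363203) stayed lower with TNFα at both times, with 5.01 and 4.58 at 24 h and 5.38 and 5.22 at 48 h. PLK1 and BIRC5 were the other genes below VC at both times, by 0.04 or less at 48 h. Among the cyclins, CCNA2, CCNB1 and CCNB2 differed by -0.41, -0.25 and -0.26 at 24 h and by 0.03, 0.10 and 0.18 at 48 h, and UBE2C by -0.27 and 0.08. ASPM, DLGAP5, KIF11, TPX2, KIF2C and KIF23 differed by -0.33, -0.32, -0.33, -0.28, -0.25 and -0.12 at 24 h. NUSAP1 was the 1 gene of the 23 that was not lower at 24 h, but it was close to 0 in this table (0.44, 0.53, 0.48 and 0.43, from 19 to 23 reads), while it read 5.13 and 5.20 on D21 in set 2, so a difference was not detectable at its depth here. Without NUSAP1 the median over all members was -0.25 at 24 h and 0.06 at 48 h, as with it (-0.24 and 0.06).

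The 2 VC libraries also differed from each other. VC 48 h was above VC 24 h in 21 of 23 mitotic genes, by a median of 0.19, with all spheroids collected on the same day. It was also above VC 24 h in 8594 of the 16905 genes with a mean of at least 1. The TNFα libraries differed by a median of 0.60 in the same direction, with 22 of 23 mitotic genes higher at 48 h, against 9331 of the same 16905 genes. In 22 of 23 mitotic genes the TNFα 24 h library was the lowest of all 4, and the share of all genes in that position was not counted. The S phase genes were lower in VC 48 h than in VC 24 h by a median of -0.15, with E2F1 at -0.42, CCNE1 at -0.40 and CCNE2 at -0.36.

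A fit over both times, with the times in place of replicates, called 2 of the 38 members (limma; 2 by edgeR and 1 by DESeq2), where limma called 19.3% of all genes, 8.42% higher and 10.8% lower. CDC20 was lower with TNFα at -0.30 (SE 0.08, limma, adjusted p = 0.0174). MCM7 was higher at 0.20 (SE 0.06, limma, adjusted p = 0.0302), with 7.92 in VC and 8.20 with TNFα at 24 h and 7.73 and 7.86 at 48 h, and it was higher in both pairs. Without a term for time neither was called. This fit averages the times, and the median over the mitotic genes was -0.12. CDK1 was at -0.20, CENPE, CCNA2 and TOP2A were each at -0.19, and none of these was called. Of the other S phase genes, CDC6 was higher in both pairs (4.14 and 4.38, then 3.88 and 4.03; 0.20, limma, adjusted p = 0.164) and RRM2 was lower at 24 h (5.59 against 5.26) and read 5.46 and 5.43 at 48 h. The differences of PCNA were 0.04 and 0.07, those of TYMS -0.08 and 0.15, and those of GINS2 -0.09 and -0.10. E2F1 differed by -0.07 and 0.02, CCNE1 by 0.10 and 0.28, CCNE2 by 0.01 and 0.22 and CDT1 by -0.02 and 0.00. MCM2, MCM3, MCM4, MCM5 and MCM6 differed by no more than 0.07 in size at either time.

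Several regulators of the cycle were called in the same fit, with 3 of 16 brakes higher and 2 lower. Over all genes limma called 19.3%, with 8.42% higher and 10.8% lower. CDKN1A read 3.59 and 4.67 at 24 h and 3.76 and 4.65 at 48 h in VC and TNFα, a difference of 0.98 (limma, adjusted p = 5.01e-07). GADD45A read 8.52 and 7.55, then 8.505 and 7.01 (-1.24, adjusted p = 1.24e-08), and CDKN1B (p27) 6.12 and 5.69, then 6.30 and 5.90 (-0.42, adjusted p = 0.000181). Of 16 drivers 4 were called higher and 1 lower, with MYC at 0.97 (adjusted p = 2.22e-08), CCND1 at 0.57 (adjusted p = 2.06e-05) and CCND3 at -0.35 (adjusted p = 0.00657), all by limma. edgeR called 6 drivers higher and 1 lower, and DESeq2 2 higher and none lower. Of 35 other G2 and mitosis genes GAS2L3 was called higher (0.39) and TUBB4B lower (-0.63), the first of which DESeq2 did not call, and of 29 other S phase genes none was called by limma, edgeR or DESeq2 and none had an unadjusted p under 0.05. Podocyte and proximal tubule markers fell with TNFα, with 8 of 8 called lower in each list. The podocyte markers summed to 7045 and 4299 CPM at 24 h and 6541 and 3187 at 48 h, and the proximal tubule markers to 806 and 474, then 784 and 547. The 6 neural progenitor markers listed there summed to 58.8 and 41.2 CPM, then 52.3 and 45.3. The 6 glial or neural crest markers summed to 192 and 135 CPM, then 198 and 191, with 5 called higher and 1 lower. The 6 mural markers, of the contractile cells around vessels, summed to 339.9 and 548 CPM, then 322 and 391, with 5 called higher. GADD45A was also among the 10 leading genes of a podocyte-like cluster of the single-cell data, and the part of cell type shares in these differences was not tested.

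The single-cell libraries show which cells carried these transcripts. After a filter of over 500 genes, VC had 11906 cells with a median of 6358.5 UMIs (counted RNA molecules) and TNFα had 23160 with a median of 2599, and 82 barcodes occurred in both libraries. Clusters were made without the 135 genes of the cell cycle lists and without 397 further genes that followed them from cell to cell, and took names only from separate markers. Doublets were scored and kept. Clustered alone, 13589 barcodes of the TNFα library fell in 1 cluster that took no name, with a median of 2174 UMIs, called flat barcodes here, which were spread over the classes when both libraries were clustered together. The main values of the TNFα library are also given without them. There is 1 library per condition, so differences between VC and TNFα have no test, and the intervals are 95% intervals of counting error only.

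**Figure D4:**
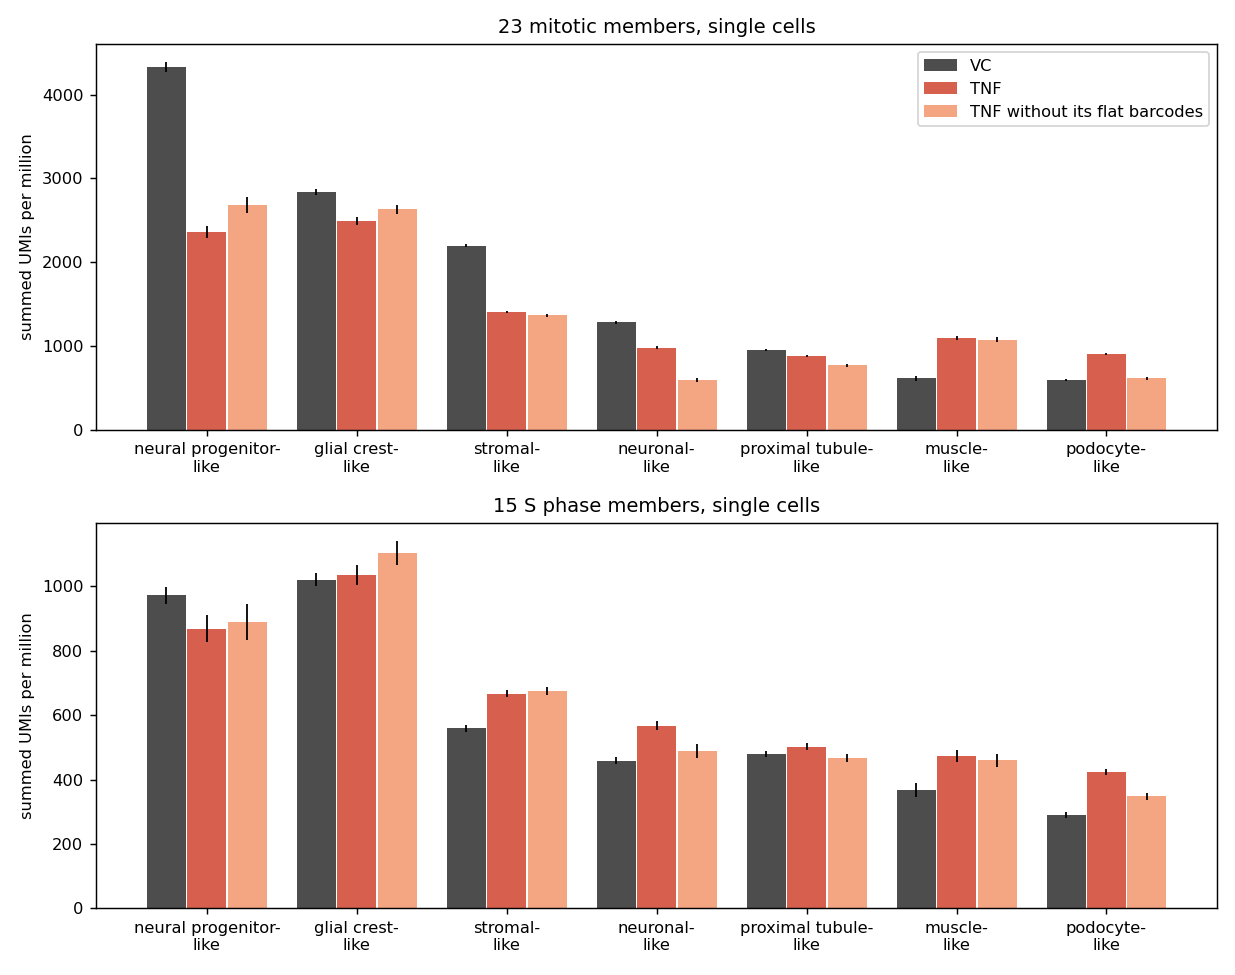
Bars give the summed UMIs of the 23 mitotic or 15 S phase genes, scaled to the total UMIs (CPM), of each cell class in the VC library, the TNFα library and the TNFα library without its flat barcodes, 1 library each, with 95% exact Poisson intervals. Neural progenitor-like cells of VC have the highest mitotic bar at 4328 CPM, and podocyte-like cells the lowest at 596.

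Among the named classes of the VC library, the neural progenitor-like cells had the highest level of each of the 23 mitotic genes. These cells were marked by SOX2, HES5, FABP7, PAX3 and ZIC1. Clusters without a name were not ranked for single genes. Summed over the 23, the level was 4328 CPM (4272 to 4384) in the 696 neural progenitor-like cells, 2837 (2804 to 2871) in the 818 glial or neural crest-like cells and 2197 (2175 to 2219) in the 2895 stromal-like cells. Neuronal-like cells followed with 1281 (1262 to 1300), proximal tubule-like cells with 949 (935 to 963), muscle-like cells with 614 (586 to 643) and podocyte-like cells with 596 (584 to 609). The intervals of the last pair overlapped, and those of all other neighbours in this order did not. These intervals leave out the spread between cells. Some classes also passed markers of other lists. The proximal tubule-like cluster passed 5 of 8 of its own markers, 4 of 8 distal tubule markers and 4 of 8 early nephron markers. The stromal-like cluster passed 7 of 8 of its own markers and 4 of 6 mural markers. Cluster 12, the smaller muscle-like cluster, passed 6 of 8 muscle markers and 3 of 8 proximal tubule markers. Of the clusters without a name, cluster 3, led by GJA4, C2CD4B and SOX17, was at 2884 CPM. No listed marker passed the naming rule in it. Cluster 7, led by NPY, SPRR2F and PLP2, was at 2858 CPM. Cluster 3 was shallow, with a median of 1070 UMIs in its 689 VC cells, against 6358.5 in all VC cells. In the TNFα library 1640 of its 1782 barcodes were flat barcodes.

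TOP2A was at 429 CPM in neural progenitor-like cells, 247 in glial or neural crest-like, 218 in stromal-like and 59.8 in podocyte-like cells. CENPF was at 773, 587, 324 and 91.4 CPM and MKI67 at 270, 165, 154 and 36.6 in the same classes. Over the named classes, the ratio of highest to lowest ran from 4.36 (AURKA) to 11.5 (PLK1) for the mitotic genes. The median ratio of these genes was 7.67. The lowest class was podocyte-like for 13 of them and muscle-like for 10. Below the first place, glial or neural crest-like cells were second in 20 of the 23 and stromal-like cells in the other 3 (NUSAP1, KIF11 and KIF23).

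The S phase genes were flatter and had another leading class. Their sum was 1020 CPM (1000 to 1041) in glial or neural crest-like cells, 972 (945 to 999) in neural progenitor-like, 559 (548 to 570) in stromal-like, 478 (469 to 488) in proximal tubule-like, 459 (448 to 470.5) in neuronal-like, 368 (346 to 390) in muscle-like and 290.2 (282 to 299) in podocyte-like cells. Among the named classes, 11 of the 15 genes were highest in glial or neural crest-like cells and 3 (PCNA, RRM2 and TYMS) in neural progenitor-like cells. E2F1 was highest in neuronal-like cells, at 25.0 CPM against 24.8 in neural progenitor-like cells, a difference within counting error. The ratio of the highest to the lowest class was 2.58 for PCNA and 8.66 for CDC6, with a median of 4.11. MCM7 was at 162 CPM in glial or neural crest-like and 59.2 in podocyte-like cells, and GINS2 at 107 and 22.1. Neural progenitor-like and glial or neural crest-like cells were thus the highest named classes for both groups of genes.

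With TNFα at 24 h all 23 mitotic genes were lower over the whole library. The ratio of TNFα to VC ran from 0.603 for ASPM (90.4 CPM in VC and 54.6 with TNFα) to 0.849 for KIF23, with a median of 0.694 and every upper bound below 1. Of the 12129 genes with at least 400 UMIs in each library, 7371 were below 1, and their median ratio over all 12129 was 0.967. A ratio of 0.85 or less, a limit just above the highest of the 23, was held by 17.0% of these 12129 genes. Without the flat barcodes all 23 were again below 1, from 0.566 to 0.799. TOP2A was at 173 and 116 CPM (ratio 0.667, 0.651 to 0.683), CENPF at 304 and 195 (0.642, 0.630 to 0.654), CDC20 at 63.1 and 40.1 (0.635, 0.610 to 0.662) and MKI67 at 109 and 75.6 (0.692, 0.671 to 0.713). NUSAP1, near 0 in the bulk TNFα table, was at 136 and 105 CPM (0.772, 0.752 to 0.792). Of the 15 S phase genes 8 were below 1, from 0.889 (MCM5) to 1.40 (CCNE1), with a median of 0.976, and none was at or under 0.85. MCM7 was at 105 and 110 CPM (1.04, 1.01 to 1.07) and CDC6 at 12.7 and 14.3 (1.12, 1.04 to 1.21). Both were higher, as in bulk, where CDC6 was not called. Without the flat barcodes their ratios were 1.03 and 1.06. The quartiles of the ratio over the 12129 genes were 0.888 and 1.05. RRM2 was at 0.948 and TYMS at 1.01. At 24 h the mitotic genes were thus lower with TNFα in 22 of 23 cases in bulk and in 23 in single cells, from another day of collection, each with 1 library a condition.

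The libraries also held different shares of most classes. Neural progenitor-like cells were 5.85% of VC and 1.98% of TNFα cells, and glial or neural crest-like cells 6.87% and 3.18%. Stromal-like cells were 24.3% and 24.5%, and proximal tubule-like cells 12.0% and 15.3%. The podocyte-like clusters 2 and 8 held 7.86% and 4.12% of VC cells and 12.2% and 6.57% of TNFα cells. These shares include the flat barcodes and were not counted without them. Flat barcodes were 2017 of 2836 TNFα cells in cluster 2 and 976 of 1522 in cluster 8. They were 255 of 458 neural progenitor-like, 338 of 737 glial or neural crest-like, 3001 of 5676 stromal-like and 1814 of 3546 proximal tubule-like TNFα cells. The part of class shares in the whole-library ratios was not tested. Within classes, the summed mitotic level was lower with TNFα in 5 of 7. It was 2357 against 4328 CPM in neural progenitor-like cells (ratio 0.545, 0.527 to 0.563), 1406 against 2197 in stromal-like (0.640, 0.630 to 0.650), 980 against 1281 in neuronal-like (0.765, 0.746 to 0.784), 2491 against 2837 in glial or neural crest-like (0.878, 0.858 to 0.898) and 882 against 949 in proximal tubule-like cells (0.930, 0.910 to 0.950). It was higher in podocyte-like cells, with 900 against 596 (1.51, 1.47 to 1.55), and in muscle-like cells, with 1096 against 614 (1.79, 1.69 to 1.88). Without the flat barcodes the neuronal-like level was 597 CPM (ratio 0.466, 0.447 to 0.486), the neural progenitor-like level 2683 (0.620), the stromal-like level 1366 (0.622), the glial or neural crest-like level 2630 (0.927) and the proximal tubule-like level 769.7 (0.811). The podocyte-like level was then 613 CPM, with an interval of the ratio that included 1 (1.03, 0.995 to 1.06), while the muscle-like level was 1074 (1.75). Most neuronal-like cells of VC lay in cluster 6 (913 of 1754) and most of TNFα in cluster 4 (1566 of 2703). The muscle-like class held 279 cells in VC and 1685 with TNFα. The glial or neural crest-like, muscle-like, podocyte-like and stromal-like ratios changed side under 1 or more other ways of making the classes, the interval of the proximal tubule-like ratio included 1 under some, and the neural progenitor-like and neuronal-like ratios were below 1 under all that were run.

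Summed S phase levels within classes were lower with TNFα only in neural progenitor-like cells (867 against 972 CPM, ratio 0.893, 0.844 to 0.944). They were higher in podocyte-like (424 against 290.2), muscle-like (472 against 368), neuronal-like (567 against 459), stromal-like (666 against 559) and proximal tubule-like cells (501 against 478), and the glial or neural crest-like interval included 1 (ratio 1.01, 0.977 to 1.05). Over the whole library the ratio was 0.995 (0.983 to 1.01).

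Counted per cell, mitotic transcripts sat in a minority of cells. Each cell was thinned to 1500 UMIs so that depths match, which left out 953 VC cells and no TNFα cell. In VC, 12.6% of cells (12.0 to 13.2) held at least 5 of the thinned UMIs from the 23 genes, and these cells carried 79.6% of all such UMIs. The share was 28.7% (25.3 to 32.2) in neural progenitor-like, 24.5% (21.6 to 27.7) in glial or neural crest-like, 11.8% (10.6 to 13.0) in stromal-like, 7.89% (6.62 to 9.33) in neuronal-like, 6.70% (5.44 to 8.14) in proximal tubule-like, 4.67% (2.44 to 8.01) in muscle-like and 3.21% (2.34 to 4.29) in podocyte-like cells. Before thinning, 25.6% of all VC cells had at least 5. A single mitotic UMI said little: 21.2% of podocyte-like cells (median 5579.5 UMIs), the class with the smallest share at 5 or more, had at least 1, against 39.6% of all VC cells. The share with at least 1 was 29.1% in neuronal-like cells (median 6329.5). Of these, 913 lay in cluster 6, which also passed 2 of the 8 neural progenitor markers, SOX2 and LHX2. Of the podocyte-like cells, 490 lay in cluster 8, which also passed 3 of the 8 early nephron markers, PAX8, LHX1 and JAG1.

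**Figure D5:**
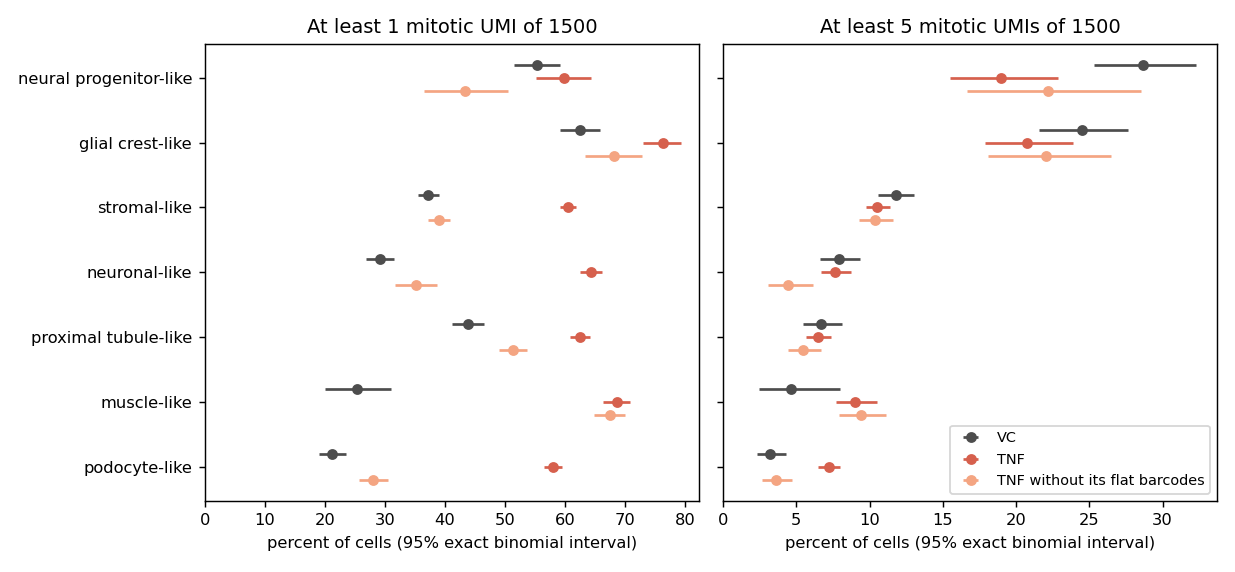
Points give the percentage of cells with at least 1 and at least 5 mitotic UMIs among 1500 thinned UMIs in each cell class, for VC, TNFα and TNFα without its flat barcodes, with 95% exact binomial intervals of counting error. In VC the share with at least 5 runs from 3.21% in podocyte-like to 28.7% in neural progenitor-like cells.

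In the TNFα library 10.1% of cells (9.76 to 10.5) held at least 5 mitotic UMIs and 63.9% held at least 1. More cells held a few such UMIs and these were spread more evenly, since cells with at least 5 carried 43.5% of them, against 79.6% in VC. Of the flat barcodes, 76.4% were at 1 or more and 10.5% at 5 or more. Without them 46.0% of TNFα cells had at least 1 and 9.58% at least 5. The share with at least 5 was lower than in VC in neural progenitor-like cells (19.0%, 15.5 to 22.9), glial or neural crest-like (20.8%, 17.9 to 23.9), stromal-like (10.5%, 9.75 to 11.4), neuronal-like (7.66%) and proximal tubule-like cells (6.49%). The intervals of the 2 libraries overlapped in all of these but the neural progenitor-like class. The share was higher in podocyte-like cells (7.21%, 6.45 to 8.01), where it was 3.59% without the flat barcodes, and in muscle-like cells (9.02%, 7.70 to 10.5). Unthinned shares gave another count, lower in 3 of 7 classes.

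Within the VC library, S phase UMIs were more frequent in cells with mitotic UMIs. Cells with no mitotic UMI held a mean of 0.478 S phase UMIs after thinning, those with 1 or 2 held 1.02, those with 3 or 4 held 1.91 and those with 5 or more 1.69. In the TNFα library the same groups held 0.639, 0.887, 1.05 and 1.23. The cells with at least 5 mitotic UMIs in VC numbered 1379, and 23.7% of them were stromal-like, 14.3% glial or neural crest-like, 14.2% neural progenitor-like and 3.19% podocyte-like. In the TNFα library they numbered 2349, of which 25.5% were stromal-like and 13.4% podocyte-like. In VC these cells had a median of 10049 UMIs against 6424 in the cells with none, and 0.725% and 1.65% of these groups had a doublet score over 0.25.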

How the data were processed

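The deposited bulk tables hold log2 values. The authors aligned reads with STAR (2.7.8a) to GRCh38, counted them per gene with HTSeq (0.11 in the submitters' processing notes) and normalized with voom, and the deposited values equal log2(CPM + 1) with 0.5 added to each count. How low genes were filtered is not stated in these sources. Whole reads could be recovered for 100% of values (tolerance 0.01 reads). The deposited single-cell counts are UMIs of Cell Ranger filtered matrices, and the processing notes name version 2.1.1 where the file headers name a later one. They list both hg19 and hg38, so the build of these counts is not settled. No column was left unmapped.

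Members and lists were chosen with earlier results of these data known. All 38 members are named, and of each wider list up to 3 called genes per comparison with the largest change. Set 2 was fitted over all 6 libraries with 1 mean per day, and the TNFα set with time as a term, over all genes (limma 3.58.1, R 4.3.3, eBayes with trend, two-sided, Benjamini-Hochberg adjusted p under 0.05). edgeR 4.0.16 and DESeq2 1.42.0 on the recovered reads were alternatives, with other filters, scalings and libraries left out in turn. Tables were normalized separately, so levels were not compared across them, apart from the low level of NUSAP1 in the TNFα set. The limma, edgeR and DESeq2 fits of D29 against D21 in set 2 and of TNFα against VC were tried on simulated counts. The planted changes there were larger than the limma changes of the members. The comparisons with D25 and the other alternatives were not simulated.

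Only cells with more than 500 genes entered the clustering, on values scaled to 10000 UMIs per cell (scanpy 1.11.5, 2000 variable genes per library, 30 components, Harmony, 20 neighbours, leidenalg 0.10.2 at resolution 0.25). The 135 listed cell cycle genes and 397 genes with a correlation of at least 0.15 to them were left out of the clustering. A cluster was named from at least 3 markers with at least 20 CPM and a log2 fold of at least 1 after adding 10 CPM. The automatic Scrublet threshold marked 0 cells, and a score over 0.25 was held by 181 VC cells (1.52%) and 532 TNFα cells (2.30%), which were kept. Levels carry exact Poisson and shares exact binomial 95% intervals, which cover counting error only. 1 cluster without a name and 1 marker list are not reported here.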

Additional observations from a re-analysis of the deposited data

Results flagged for a closer look

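In the bulk TNFα set, 19 of the 23 mitotic genes were lower with TNFα at 24 h and higher at 48 h. Each time had 1 library per condition, so this difference between the times was not tested. The share of all genes with the same directions was not counted. In the single-cell libraries the summed mitotic level was lower with TNFα in 5 of 7 classes, while the ratio of TNFα to VC was 1.51 in podocyte-like cells and 1.79 in muscle-like cells. These opposite directions come from 1 library per condition, and the difference between the classes was not tested. Without the flat barcodes of the TNFα library the podocyte-like ratio was 1.03 and the muscle-like ratio 1.75.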

How the results depend on the processing

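The count of members called from D21 to D25 was 11, with 5 without the intensity trend, 19 with the Org number as a replicate block, and 0 to 18 when 1 library was left out, where the lone library of a day is assumed to vary like the others. From D25 to D29 it was 5, with 14 by DESeq2, 12 by edgeR, 9 with a filter at a mean of 1, 0 without the trend, 10 with the replicate block and 0 to 12 with 1 library left out. From D21 to D29 it was 0, with 1 by edgeR, 2 with the filter at a mean of 1, 2 after median centring, 2 with the replicate block and 0 to 1 with 1 library left out. The Org numbers pair libraries by number alone: the Org1 minus Org2 differences correlated across 18572 genes at 0.143 for D21 with D25, 0.0753 for D21 with D29 and 0.270 for D25 with D29. With TNFα over both times the count was 2, with 1 by DESeq2, 0 without a term for time and 0 without the trend. The mitotic level was lower with TNFα in 5 of 7 cell classes, and in 3 where no genes were left out of the clustering. The S phase level was lower in 1 class, in 3 where only the listed genes were left out and in 2 without the flat barcodes. The share of cells with at least 5 mitotic UMIs was lower in 5 classes, and in 3 without thinning. With intervals clear of 1 in both settings, the TNFα to VC ratio of the mitotic genes crossed 1 in glial or neural crest-like cells under the marker gate (1.15), in muscle-like cells with only the listed genes left out (0.728) and under the marker gate (0.940), in podocyte-like cells with each library clustered alone (0.922) and in stromal-like cells with no genes left out (1.78). By the same measure that of the S phase genes crossed 1 in muscle-like cells with only the listed genes left out (0.919) and in neural progenitor-like cells under the marker gate (1.62), and the glial or neural crest-like ratio, whose interval included 1, became 0.959 with only the listed genes left out. The cause of these differences was not tested. Of the further values, 210 counted as the same. For a called gene this meant the same direction and still a call. For a median of the TNFα set it meant a shift under the typical SD of a member, and for a single-cell ratio a value within its main interval. In 81 cases a called gene kept its direction but was no longer called, and 58 medians or ratios moved beyond these limits without crossing 1 as above. The alternatives on doublets, flat barcodes and cells of at least 5000 UMIs, and the median without NUSAP1, were chosen after seeing the data. Few libraries per group limit the calls, and with 1 single-cell library per condition no difference has a replicate.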
